A study of Mus musculus with 4 samples.

Results

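The cluster of miR-191 and miR-425 is a pair of microRNA (miRNA) hairpins that give 4 mature arms, mmu-miR-191-5p, mmu-miR-191-3p, mmu-miR-425-5p and mmu-miR-425-3p (the mouse prefix is left off from here on). The rows were chosen by name, and all 4 were found among the 847 rows of the count table. Small RNA had been sequenced from macrophages sorted from the spleen and the bone marrow (BM) of C57BL/6J mice. The groups were AML spleen, normal spleen, AML BM and normal BM, with 1 library each. AML mice had received GFP+ MLL-AF9 acute myeloid leukaemia cells without irradiation and were sampled on day 18 after the transfer. Normal mice are given by that word alone, and the stated age of the recipients is 6 to 8 weeks. MLL-AF9 is a fusion of a histone methyltransferase gene with a partner gene and drives the leukaemia. The study's stated question was how miRNAs differ between leukaemia-associated and homeostatic macrophages. The sources used here give neither the sort markers nor whether mice were pooled.

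A miRNA is cut from a hairpin as a duplex, and usually 1 arm is kept by an Argonaute protein and pairs with messenger RNAs through its seed. The hairpins of miR-191 and miR-425 lie side by side and are thought to be cut from a shared primary transcript. In human acute myeloid leukaemia a high level of miR-191 has been tied to shorter survival, and in mouse red cell precursors miR-191 falls before the nucleus is lost and targets Riok3 and Mxi1. Both 5p arms are also in common use as reference miRNAs for quantitative PCR, because they vary little across many tissues.

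The mature sequences are shown because the arms are counted apart by sequence. They are RefSeq's, on the plus strand of build GRCm38.p6, 5′ to 3′, with the seed (bases 2 to 8) in capitals. All 4 members were matched by name.
miR-191-5p (chr9:108568325-108568347): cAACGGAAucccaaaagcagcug
miR-191-3p (chr9:108568367-108568388): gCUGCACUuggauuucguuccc
miR-425-5p (chr9:108568789-108568811): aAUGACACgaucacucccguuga
miR-425-3p (chr9:108568830-108568850): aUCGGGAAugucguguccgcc
No 2 of these arms share a seed. Among 1679 mature mouse miRNAs in the RefSeq table, the seeds of miR-191-5p, miR-191-3p and miR-425-3p had no other owner. The seed of miR-425-5p is also that of miR-489-3p, which has no row in the count table used here.

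The hairpins are shown with the mature arms in capitals, to place each arm on its stem.
Mir191 (chr9:108568319-108568392): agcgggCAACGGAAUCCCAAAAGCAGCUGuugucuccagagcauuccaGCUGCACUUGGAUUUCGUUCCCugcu
Mir425 (chr9:108568777-108568861): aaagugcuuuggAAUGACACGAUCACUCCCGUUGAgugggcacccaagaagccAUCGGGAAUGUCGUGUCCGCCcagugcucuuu
The hairpins are 74 and 85 bases long and are 384 bases apart. The nearest other hairpin of the RefSeq table, Mir711, is 401061 bases away. Both lie inside the span that RefSeq gives to Dalrd3, on the same strand. In GENCODE M21 Dalrd3 begins 1024 bases downstream of Mir425, and both hairpins instead lie in the single exon of transcript 201 of the noncoding gene 4833445I07Rik. GENCODE also places a predicted hairpin, Gm24083, on the opposite strand across Mir191. The sources used here do not say whether strand was used in counting.

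Total counts ran from 180227 to 435492 per library, and each difference below compares libraries and has no replicate check. The 4 members together held 0.981% of the AML spleen library, 2.25% of that of normal spleen, 0.999% for AML BM and 0.660% for normal BM. Levels are counts per 1000000 (CPM) of the library after scaling by trimmed mean of M values (TMM). Brackets hold 95% exact intervals, which cover counting error only, since each group holds 1 library. The files hold no molecular identifiers, so reads and not molecules were counted. To be called, a ratio had to reach 2-fold in either direction with an interval clear of 1, and the larger of its counts had to reach 30. Of the 4 myeloid miRNAs, miR-223-3p was scarce, and was read 4 times in AML spleen and 28 times in normal spleen, and 12 times in AML BM and 10 times in normal BM. The haematopoietic miR-142a-3p was better covered, with 253, 1704, 170 and 31 reads in AML spleen, normal spleen, AML BM and normal BM, and miR-142a-5p had 213, 1047, 173 and 67. For miR-223-5p there were 10, 36, 149 and 42 reads, and the lymphocyte miR-150-5p was read 1676, 9910, 379 and 154 times in the same libraries.

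The dominant arm miR-191-5p was an abundant miRNA in all 4 libraries. It stood at 8536 CPM [8129 to 8959] in AML spleen and 23410 CPM [22934 to 23894] in normal spleen, from 1647 and 9179 counts. In BM it stood at 8680 CPM [8339 to 9032] in AML and 5980 CPM [5651 to 6322] in normal mice, from 2434 and 1240 counts. Normal spleen was thus the highest and normal BM the lowest, while the AML libraries of spleen and BM lay between them with overlapping intervals. By count it ranked 28 of 535 detected rows in AML spleen and 14 of 680 in normal spleen, and it ranked 26 of 547 in AML BM and 32 of 505 in normal BM. Its next neighbours in normal spleen were miR-139-5p (9245 counts) above and let-7g-5p (8663 counts) below, and those in normal BM were miR-7a-5p (1409 counts) and miR-101a-3p (1167 counts).

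Its cluster partner miR-425-5p was an order of magnitude lower. It had 108, 534, 248 and 108 counts in AML spleen, normal spleen, AML BM and normal BM, which gave 560, 1362, 884 and 521 CPM in that order. Normal spleen was again the highest, AML BM came next, and the intervals of AML spleen [459 to 676 CPM] and normal BM [427 to 629 CPM] overlapped. The minor arms were scarce. For miR-425-3p there were 6, 51, 15 and 8 counts in those libraries, and only normal spleen, at 130 CPM [96.8 to 171], stood above the other 3 with no overlap of intervals. For miR-191-3p there were 7, 13, 12 and 7 counts, or 36.3, 33.2, 42.8 and 33.8 CPM, and all intervals overlapped.

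**Figure D1:**
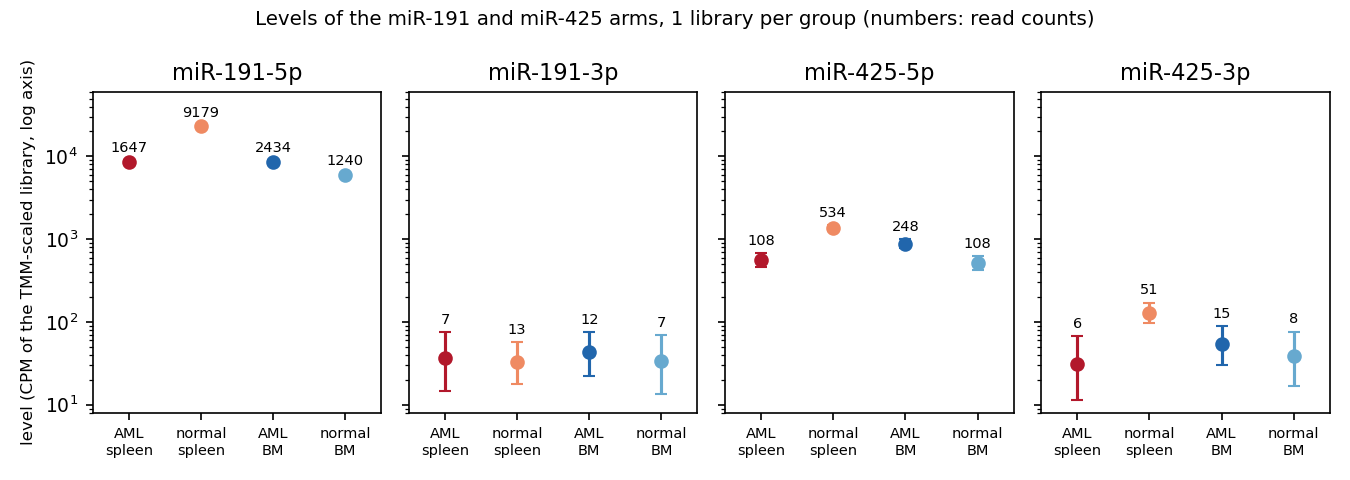
Level of each arm (CPM of the TMM-scaled library, log axis) in the 4 libraries, with read counts printed above the points and bars for exact 95% Poisson intervals. Normal spleen is the highest library for miR-191-5p (23410 CPM), miR-425-5p (1362 CPM) and miR-425-3p (130 CPM), while the miR-191-3p intervals overlap throughout.

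In the spleen, both 5p arms were lower in leukaemic than in normal macrophages. The AML spleen level of miR-191-5p was 0.365 of the normal one, and the log2 ratio was -1.46 [-1.53 to -1.38]. For miR-425-5p the log2 ratio was -1.28 [-1.59 to -0.98]. For miR-425-3p, from 6 and 51 counts, it was -2.06 [-3.58 to -0.84], but this arm reached 30 counts only in normal spleen, where it was highest, so its ratio is not counted as support. The other minor arm, miR-191-3p, had a log2 ratio of 0.13 [-1.44 to 1.56] and too few counts to be called in any comparison. The calls of the 5p arms stand against a background in which 21.3% of the 216 miRNAs compared were called lower in AML spleen, with a median log2 ratio of -0.25. Of those 216, 24 had a lower ratio than miR-191-5p. Arms of a hairpin and hairpins of a cluster share their source, so the calls are not independent.

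In the BM, no arm reached 2-fold between leukaemic and normal macrophages, and all 4 ratios were above 0 on the log2 scale. For miR-191-5p the log2 ratio of AML BM over normal BM was 0.54 [0.44 to 0.64], a level 1.45-fold higher. For miR-425-5p it was 0.76 [0.43 to 1.10], a level 1.70-fold higher. The minor arms miR-425-3p and miR-191-3p stood at 0.47 and 0.34, with intervals that included 0. Of 216 miRNAs compared, 25.5% were called in either direction and the median log2 ratio was 0.00. Among them 58 had a higher ratio than miR-191-5p and 42 a higher one than miR-425-5p.

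The difference between leukaemic and normal macrophages therefore had opposite signs in the tissues for both 5p arms. The log2 ratio of the spleen minus that of the BM was -1.99 for miR-191-5p (Wald 95% interval -2.12 to -1.87) and -2.05 for miR-425-5p (-2.49 to -1.60), a gap of about 4-fold for each. For miR-425-3p it was -2.54 (-4.27 to -0.80). This arm reached 30 counts only in normal spleen, where it was highest, so its gap is not counted as support. Such a pattern was common in these libraries: of 186 miRNAs compared in both tissues, 53.8% had opposite signs in the tissues with both intervals excluding 1, and 30.1% had the signs of these arms, above 0 in the BM and below 0 in the spleen. Of the same 186 miRNAs, 29 had a lower gap than miR-191-5p, with miR-425-5p among them.

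Between the normal tissues, both 5p arms were higher in the spleen. For miR-191-5p the log2 ratio of normal spleen over normal BM was 1.97 [1.88 to 2.06], a 3.92-fold difference. For miR-425-5p it was 1.39 [1.09 to 1.70]. For miR-425-3p, from 51 and 8 counts, the value was 1.75 [0.67 to 3.04], which again reached 30 counts only through normal spleen. The ratio of miR-191-3p was -0.03 [-1.46 to 1.54]. In this comparison 66.2% of 234 miRNAs were called, 30.8% as higher in normal spleen and 35.5% as lower. It shares the normal spleen library with the AML comparison of the spleen, so the calls in both rest on that library. The gap between the tissues given above equals the spleen over BM ratio in AML mice minus that in normal mice. For miR-191-5p these log2 ratios were -0.02 and 1.97, so its gap and its normal tissue difference are not separate results.

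Between the leukaemic tissues, no arm was called, against 35.1% of 211 miRNAs called in either direction. For miR-191-5p the log2 ratio of AML spleen over AML BM was -0.02 [-0.12 to 0.07], and its sign turned under 3 of the 4 other scalings or row sets. For miR-425-5p it was -0.66 [-0.9996 to -0.33], so that its level in AML spleen was 0.633 of that in AML BM. The ratios of miR-425-3p and miR-191-3p were -0.78 [-2.44 to 0.66] and -0.24 [-1.82 to 1.22].

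**Figure D2:**
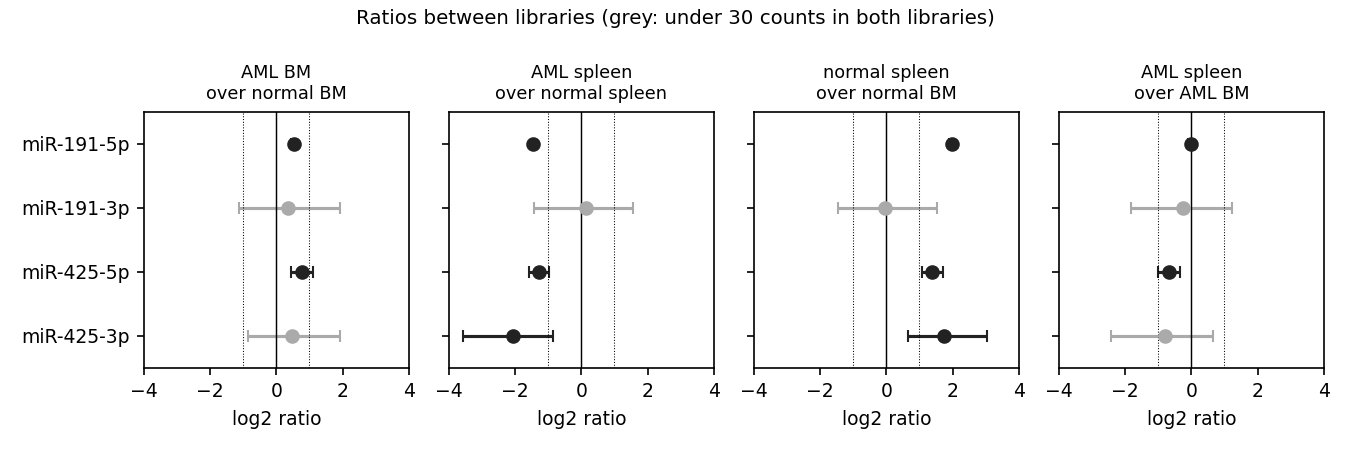
Log2 ratios between libraries for each arm, with 95% exact intervals for counting error; dotted lines mark 2-fold and grey points have under 30 counts in both libraries. Both 5p arms lie above 0 for AML BM over normal BM (0.54 and 0.76) and below -1 for AML spleen over normal spleen (-1.46 and -1.28).

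The levels of other cell types' miRNAs differed between the same libraries. Reads of the 7 lymphocyte miRNAs summed to 50218 CPM in AML spleen against 109714 CPM in normal spleen, and to 45089 CPM in AML BM against 19067 CPM in normal BM. Of these 7, 0 were called higher and 5 lower in AML spleen, against 25% and 21.3% of all 216. In AML BM 2 were called higher and 0 lower, against 13.4% and 12% of all 216. Reads of the 4 myeloid miRNAs summed to 2488, 7179, 1797 and 723 CPM in AML spleen, normal spleen, AML BM and normal BM. Of 3 myeloid miRNAs compared between normal spleen and normal BM, 2 were called higher and 1 lower, against 30.8% and 35.5% of all 234. The myeloid miR-223-5p had its most reads, 149, in AML BM. In the sums of both lists normal spleen was the highest and normal BM the lowest, as for miR-191-5p and miR-425-5p. Most reads of the myeloid sum in normal spleen were of miR-142a-3p and miR-142a-5p (1704 and 1047). There were 28 of miR-223-3p and 36 of miR-223-5p there. The reads of miR-223-5p did not have that order, at 10 and 36 in AML and normal spleen, and 149 and 42 in AML and normal BM. The 8 stromal and endothelial miRNAs ran the other way, with 22111, 3655, 22122 and 32005 CPM, as did the 3 muscle miRNAs, with 12222, 2306, 10463 and 35530 CPM. The 6 blast and progenitor miRNAs include miR-126a-3p, which is also in the stromal and endothelial list. They summed to 35866 CPM in AML spleen against 7878 CPM in normal spleen. Of 5 compared there, 4 were called higher and 1 lower, against 25% and 21.3% of all 216 miRNAs compared. In AML BM the 6 blast and progenitor miRNAs summed to 37378 CPM, against 53738 CPM in normal BM. Of 5 compared there, 0 were called higher and 1 lower, against 13.4% and 12% of all 216. The 5 erythroid miRNAs held between 13937 and 17960 CPM in sum. The erythroid miR-451a was less even, with 355, 186, 323 and 1063 reads in AML spleen, normal spleen, AML BM and normal BM. Of 3 erythroid miRNAs compared between normal spleen and normal BM, 1 was called higher and 1 lower, against 30.8% and 35.5% of all 234. No miRNA of these lists was at 0 in any library, and their part in the results was not tested. Fewer cells of a type and less RNA per cell cannot be told apart in these bulk libraries.

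A model with tissue and state as terms over all 4 libraries was fitted to 246 miRNAs by edgeR's quasi-likelihood method, with p-values adjusted after Benjamini and Hochberg. It called 0% of them for AML and 0% for tissue. Simulated AML changes of 2 or 3 log2 units were found in 0% of cases at the dispersion estimated here. The lack of AML calls therefore cannot tell a change from none. For AML, 0 miRNAs had an unadjusted p under 0.05 with edgeR and DESeq2 and 1 with limma; for tissue these numbers were 15, 34 and 21. In that fit miR-191-5p had a log2 change for AML of -0.30 (SE 0.95, adjusted p = 0.996) and for spleen over BM of 1.04 (SE 0.96, adjusted p = 0.760). For miR-425-5p these were -0.10 (SE 1.05, adjusted p = 0.996) and 0.43 (SE 1.05, adjusted p = 0.922). Each SE was derived as the absolute log2 change over the square root of the quasi-likelihood F statistic. The model counts the opposite signs in the tissues as noise, has 1 residual degree of freedom, and measures only the spread between these libraries.

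The balance between the hairpins was higher in the 2 spleen libraries than in the 2 BM libraries. Library scaling cancels in this ratio, since both counts come from the same library. There were 15.2 reads of miR-191-5p per read of miR-425-5p in AML spleen [12.5 to 18.7] and 17.2 in normal spleen [15.8 to 18.8]. The ratio was 9.81 in AML BM [8.61 to 11.2] and 11.5 in normal BM [9.43 to 14.1]. Both spleen libraries were thus above both BM libraries, although the intervals of AML spleen and normal BM overlapped. The ratio was 1.50-fold higher in normal spleen than in normal BM (log2 0.58 [0.26 to 0.90]) and 1.55-fold higher in AML spleen than in AML BM (log2 0.64 [0.29 to 0.99]). Between leukaemic and normal macrophages it differed by -0.17 [-0.48 to 0.15] in the spleen and by -0.23 [-0.58 to 0.12] in the BM on the log2 scale, with both intervals including 0. The BM interval extends to a size equal to the normal tissue difference. With 1 library per group, a difference by state or by tissue was not tested.

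Pairs from other miRNA clusters, taken where RefSeq places their arms within 10000 bases on a strand, give a rough measure of how far clustered miRNAs part. Counts are per mature arm, so an arm that is also made at another locus would mix loci. For normal spleen over normal BM, 33.3% of 12 such pairs changed their balance at least 2-fold, and 7 changed it less than miR-191-5p and miR-425-5p did. For AML spleen over AML BM, 27.3% of 11 pairs did so and 7 changed it less. Among those over 2-fold was miR-144-3p with miR-451a, which rests on 2 reads of miR-144-3p in AML spleen. For AML BM over normal BM, 25% of 12 pairs passed 2-fold and 4 changed less, and for AML spleen over normal spleen 27.3% of 11 passed and 3 changed less. The shift of this cluster was therefore within the range of other clusters in each comparison.

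The 5p arm dominated both hairpins, more so for miR-191. Over the 4 libraries miR-191-5p had 14500 counts and miR-191-3p 39, a 5p share of 99.7%, and 11 of 104 hairpins with both arms in the table and at least 100 counts had a higher one. For miR-425 there were 998 and 80 counts, a 5p share of 92.6%, and 35 hairpins were higher. Of the 104 hairpins, 60 had more 5p than 3p reads, and the median share of the larger arm was 95.4%. The share of miR-425 was thus below that median. The share of miR-425-5p was 94.7% [88.9 to 98.0] in AML spleen, 91.3% [88.7 to 93.4] in normal spleen, 94.3% [90.8 to 96.8] in AML BM and 93.1% [86.9 to 97.0] in normal BM, and all these intervals overlapped. A change in the arm balance of miR-425 was not detectable at this depth.

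The arm ratio of miR-191 was highest in normal spleen, on few reads of the 3p arm. In AML spleen there were 235 reads of miR-191-5p per read of miR-191-3p, against 706 in normal spleen. In AML BM there were 203, and in normal BM 177. The log2 difference in arm ratio was 1.99 [0.43 to 3.43] for normal spleen over normal BM and -1.59 [-3.02 to -0.02] for AML spleen over normal spleen. The 5p shares themselves were 99.6% [99.13 to 99.83] in AML spleen and 99.9% [99.76 to 99.92] in normal spleen. In BM they were 99.5% [99.14 to 99.75] in AML and 99.4% [98.85 to 99.77] in normal mice. The interval of normal spleen overlapped those of AML spleen and normal BM, and lay just above that of AML BM. These values rest on 7 to 13 reads of the 3p arm per library. For hairpins with at least 30 reads of each arm over both libraries, which miR-191 did not reach, the arm ratio changed at least 2-fold for 50% of 46 between the normal tissues and for 43.9% of 41 between AML spleen and normal spleen.

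**Figure D3:**
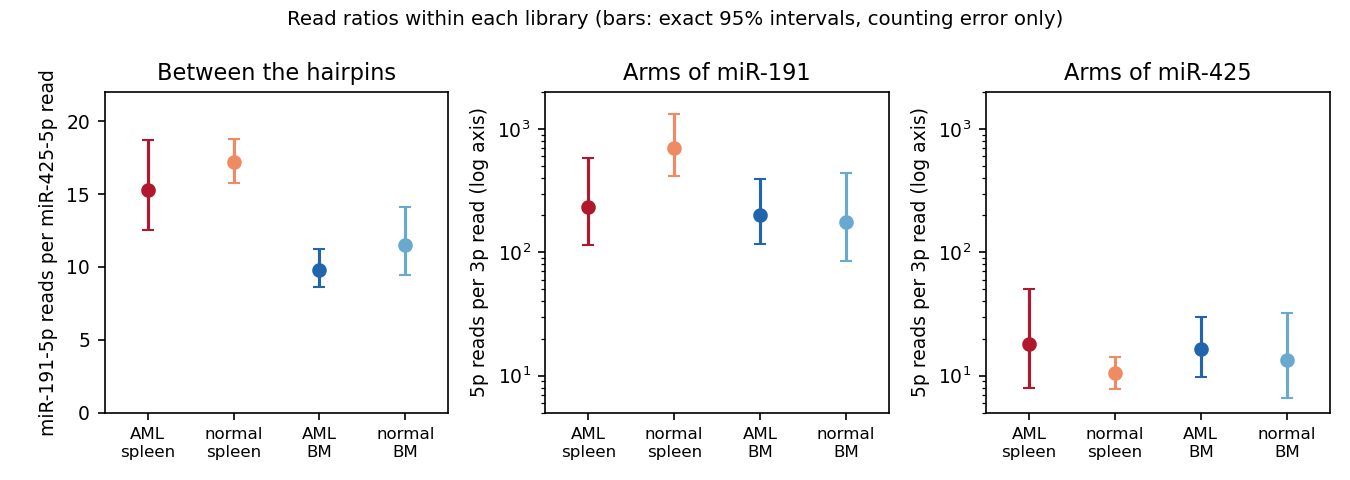
Read ratios within each library, with exact 95% intervals for counting error: miR-191-5p reads per miR-425-5p read (left, linear axis from 0) and 5p reads per 3p read of each hairpin (middle and right, log axes). The left panel shows 15.2 and 17.2 in the spleen libraries and 9.81 and 11.5 in the BM libraries, and the middle panel shows normal spleen at 706.

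As reference miRNAs, the 5p arms were not among the steadiest here. The span of a miRNA, its highest over its lowest level across the 4 libraries, was 3.92-fold for miR-191-5p and 2.62-fold for miR-425-5p, both between normal spleen and normal BM. Over the 144 miRNAs that had 30 counts or more in each library, the median span was 2.93-fold, and 94 of them were narrower than miR-191-5p and 61 narrower than miR-425-5p. Of 14 other miRNAs in use as references, 13 reached that depth, and 11 of these had a narrower span than miR-191-5p and 10 a narrower one than miR-425-5p. The narrowest were miR-23a-3p at 1.20-fold, miR-26a-5p at 1.24-fold and miR-103-3p at 1.26-fold, while miR-484 at 4.34-fold and miR-152-3p at 9.09-fold were wider than both members. Between the AML libraries alone, miR-191-5p differed by a log2 ratio of -0.02. These spans are a description of 4 libraries on the TMM scale, with no test.

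**Figure D4:**
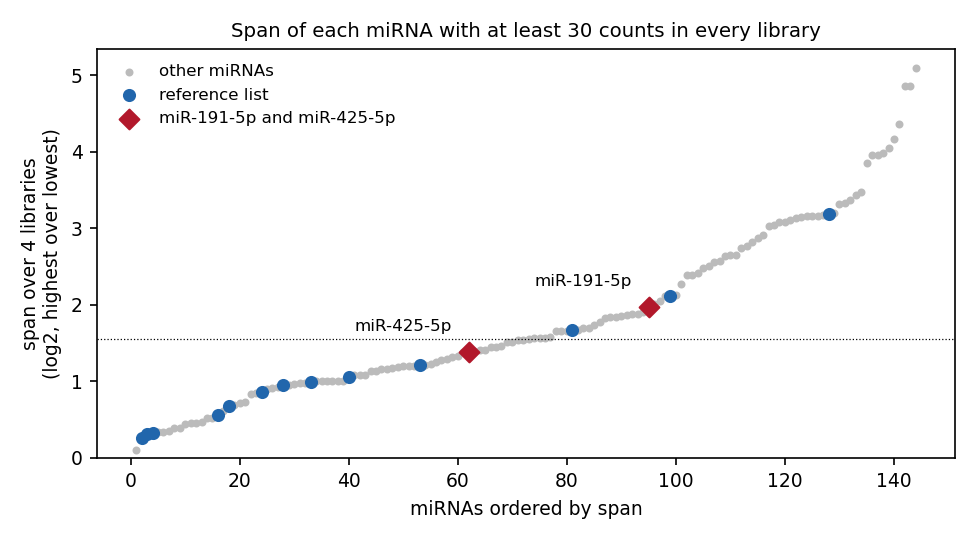
Span of each of 144 miRNAs (log2 of the highest over the lowest level over 4 libraries), ordered from narrow to wide, with the median as a dotted line. The miR-191-5p span of 1.97 has 94 narrower miRNAs and the miR-425-5p span of 1.39 has 61; most of the reference list lies to the left of both.

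The profile of miR-191-5p over the 4 libraries was most like those of miR-501-3p, miR-532-5p, miR-93-5p, miR-361-3p and miR-652-3p. The root mean square difference of their centred log2 levels from it was 0.13, 0.18, 0.21, 0.23 and 0.23 in that order. The profile of miR-425-5p was most like those of miR-652-3p (0.11), miR-106b-3p (0.15), miR-92a-3p (0.17), miR-25-3p (0.19) and miR-1964-3p (0.21). For each, miR-652-3p was among the 5 nearest, at 394 CPM in AML spleen against 1061 CPM in normal spleen, and at 585 CPM in AML BM against 333 CPM in normal BM. The cluster partners were farther from each other, at 0.32: miR-425-5p came 10th in nearness to miR-191-5p and miR-191-5p came 15th to miR-425-5p, each of 143. With 4 libraries such an order is a description only.

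**Figure D5:**
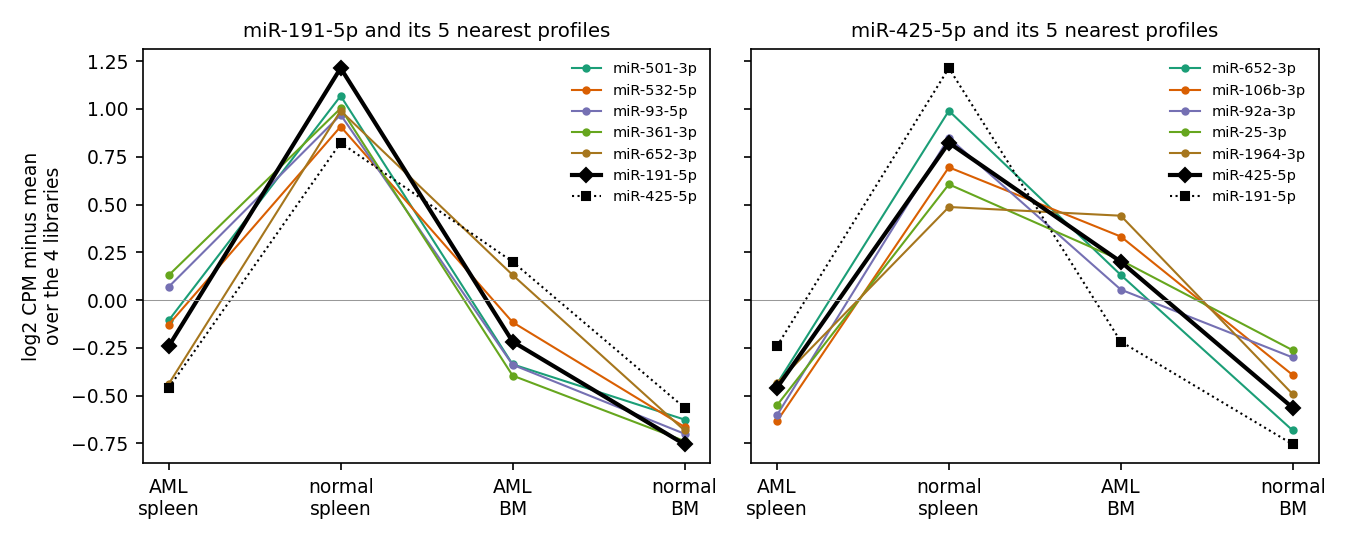
Log2 CPM minus each miRNA's mean over the 4 libraries, for miR-191-5p (left) and miR-425-5p (right) with the 5 nearest profiles and, dotted, the other cluster member. All profiles drawn peak in normal spleen; miR-425-5p lies above miR-191-5p in both BM libraries and below it in both spleen libraries.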

How the data were processed

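Per the file headers, the deposited table gives read counts per miRNA and TPM for 4 libraries. The deposited TPM equalled the count over the library total times 1000000, with no length term, and was used only for that check. Groups were taken from the titles. The sources used here name no aligner, counting tool, build or miRNA annotation. Library totals were multiplied by TMM factors (edgeR 4.0.16, R 4.3.3) of 1.07 for AML spleen, 0.900 for normal spleen, 1.03 for AML BM and 1.00 for normal BM. Ratios carry 95% exact conditional (Clopper-Pearson) intervals, and ratios of ratios within a library carry Fisher's exact conditional intervals (scipy 1.17.1). A set of 7 rows repeats the counts of another row within 3% or 2 counts, and none of them matches a member. The additive model was fitted with edgeR, with DESeq2 1.42.0 and limma 3.58.1 as alternatives, and the scripts were tested on simulated data. Simulated AML changes of 2 or 3 log2 units were found in 0% of cases at the dispersion estimated here (0.417, 230 miRNAs). At a dispersion of 0.1 (232 miRNAs), 80.0% of changes of 2 units and 100% of changes of 3 units were found. Named miRNAs were the members, the 5 nearest profiles of each 5p arm, neighbours in rank, examples of the reference list and some miRNAs of the cell type lists. The members and lists were chosen with earlier results of these data known.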

Additional observations from a re-analysis of the deposited data

Results flagged for a closer look

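Both 5p arms drew attention because the single ratio of AML over normal had opposite signs in spleen and BM, each from 1 AML library and 1 normal library. For miR-191-5p the log2 ratio of AML over normal was -1.46 in the spleen and 0.54 in the BM, a difference of -1.99. For miR-425-5p it was -1.28 in the spleen and 0.76 in the BM, a difference of -2.05. Each difference equals the spleen over BM ratio in AML mice minus that in normal mice, so it is not separate from the normal tissue ratio. Neither difference was tested across replicates, and 53.8% of the 186 miRNAs compared in both tissues had opposite signs with both intervals excluding 1.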

How the results depend on the processing

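Of 174 alternative values for 42 results, 150 kept their direction and their side of the threshold, or stayed within their interval or within 1.5 times the count. The calls of miR-191-5p and miR-425-5p for AML spleen over normal spleen and for normal spleen over normal BM held under every scaling and count minimum tried. DESeq2 size factors and total counts moved all log2 ratios of AML spleen over normal spleen by -0.24 and 0.25, which gave 51 higher and 68 lower, or 64 and 36, in place of 54 and 46. For normal spleen over normal BM, 72 higher and 83 lower became 86 and 78 under DESeq2's factors, and 59 and 84 when scaled by total counts. Totals without the 10 most abundant miRNAs turned 29 higher and 26 lower in AML BM into 39 and 19. A minimum of 100 counts ended the calls of miR-425-3p at -2.06 and 1.75, since it had 51 counts at most. The sign of miR-191-3p turned for AML spleen over normal spleen (-0.11 with DESeq2 size factors) and for normal spleen over normal BM (0.21 with DESeq2 size factors, 0.16 without the 10 most abundant miRNAs, 0.0037 without repeated rows), all near 0 and from 7 and 13 counts. For AML spleen over AML BM, miR-191-5p turned to 0.026 on total counts, 0.047 without the 10 most abundant miRNAs and 0.010 without repeated rows. The span of miR-191-5p was 2.21 with DESeq2 size factors, 1.81 on total counts and 2.15 without the 10 most abundant miRNAs, on the log2 scale. A minimum of 10 counts gave 93 calls for AML BM, 151 for AML spleen and 113 for AML spleen over AML BM, in place of 55, 100 and 74. A minimum of 100 counts gave 24, 64 and 37, and 96 in place of 155 for normal spleen over normal BM. With 100 counts per arm, hairpins whose arm ratio changed numbered 6, 11, 13 and 4 in place of 12, 18, 23 and 15 for AML BM over normal BM, AML spleen over normal spleen, normal spleen over normal BM and AML spleen over AML BM, as fewer were tested. DESeq2 called 8 miRNAs for tissue where edgeR called 0, no member among them. With 1 library per group no replicate could be left out, and no paired analysis was possible because the groups hold 1 library each.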
